A study of Mus musculus with 2 samples.

Results

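Elastic fibre genes are described here in single-cell RNA-seq of the first mandibular molar and the tissue around it, taken from C57BL/6J mice at PN15.5. The 9 members, Eln, Mfap2, Mfap4, Mfap5, Fbln1, Fbln2, Fbln5, Efemp2 and Emilin1, were chosen by gene symbol, and all 9 of 9 were found among the 34285 genes in both libraries. Mice of the Lipo-Clo library received clodronate liposomes, which kill phagocytic macrophages, by intraperitoneal injection of 40 µg/g given 4 times, 3 days apart, from PN3.5, and mice of the Lipo-PBS library received vehicle liposomes at the same times. Each condition is 1 library, listed as replicate 1, and the number of mice behind each is not given in the sources used here. A difference between the libraries therefore has no replicate check, and treatment and library cannot be told apart. The agent is given to the whole animal and can reach macrophages outside the tooth. The macrophage-like cluster held 127 kept cells of the Lipo-Clo library and 173 of the Lipo-PBS library.

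Elastic fibres give skin, ligament and vessel walls their recoil. Tropoelastin, the product of Eln, is cross-linked by lysyl oxidases on a scaffold of fibrillin microfibrils, and microfibril-associated proteins, fibulins and EMILINs bind the scaffold or carry tropoelastin and the enzymes to it. In the periodontium, gingival connective tissue and arterial walls hold mature elastic fibres, whereas the periodontal ligament is known chiefly for oxytalan fibres, which are microfibrils with little or no elastin.

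The coding sequence of Eln is shown for the alanine-rich stretch that carries cross-link lysines, and 5 other members are shown where their coding sequence spells Arg-Gly-Asp, the tripeptide that many matrix proteins present to integrins. Sequences are from the GENCODE M21 annotation on GRCm38, each is 10 codons of 1 annotated transcript on the coding strand, and codons are counted from 1 at the start codon. Capitals mark the 2 lysine codons of Eln and the Arg-Gly-Asp codons of the others.
Eln, codons 361 to 370, exon 18, chr5:134718996-134719025, minus strand: gctgctgcaAAGgctgctgctAAGgctgct
Mfap4, codons 25 to 34, exons 2 and 3, chromosome 11 between 61485787 and 61486048, plus strand: tctgggatcCGGGGAGATgctctggagaag
Mfap5, codons 27 to 36, exons 3 and 4, chromosome 6 between 122515368 and 122520592, plus strand: agtggtcaaCGCGGAGATgatgtgcctgag
Fbln2, codons 418 to 427, exons 2 and 3, chromosome 6 between 91234327 and 91250862, plus strand: tctgtccccAGAGGTGATcttgatggctcc
Fbln5, codons 64 to 73, exon 4, chr12:101809915-101809944, minus strand: gaggcttgtCGTGGGGACatgatgtgtgtc
Emilin1, codons 575 to 584, exon 4, chr5:30918139-30918168, plus strand: ctgcaagccCGTGGGGATgagggttgtggc

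Eln stood apart from the other members in composition. Of its 860 codons 36.3% encode glycine and 21.05% alanine, and 12 pairs of lysine codons lie 2 or 3 alanine codons apart, a spacing found 0 times in the other 8 members. The 4 fibulins, whose repeated EGF-like domains are held together by cysteines, had 8.76% to 10.2% cysteine codons, against 0.233% in Eln. No Arg-Gly-Asp run was found in the transcripts used for Eln, Mfap2, Fbln1 and Efemp2, and a match of letters does not show that a cell receptor binds there.

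On GRCm38, Eln (ENSMUSG00000029675) spans chromosome 5 from 134702593 to 134747323 and Emilin1 (ENSMUSG00000029163) lies on the same chromosome from 30913402 to 30921277. Mfap5 (ENSMUSG00000030116, 122505845 to 122529290) and Fbln2 (ENSMUSG00000064080, 91212455 to 91272540) are both on chromosome 6. The other members are Mfap2 (ENSMUSG00000060572) on chromosome 4 from 141010418 to 141015984, Mfap4 (ENSMUSG00000042436) on chromosome 11 from 61485431 to 61488900, Fbln1 (ENSMUSG00000006369) on chromosome 15 from 85205949 to 85286535, Fbln5 (ENSMUSG00000021186) on chromosome 12 from 101746565 to 101819055, and Efemp2 (ENSMUSG00000024909) on chromosome 19 from 5473954 to 5482517. Over all deposited cells the members drew between 1325 UMIs (Fbln5) and 14949 UMIs (Eln) in Lipo-Clo, and between 1665 UMIs (Fbln5) and 20252 UMIs (Eln) in Lipo-PBS. A UMI is 1 captured RNA molecule, and every level below is in CPM, the UMIs of a gene in 1000000 UMIs of the same cells. CPM does not correct for gene length or capture, so levels are compared between cells and libraries and not between genes.

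The deposited libraries held 9362 cells with 31053404 UMIs (Lipo-Clo) and 9653 cells with 30537834 UMIs (Lipo-PBS), of which 8254 and 8261 cells were kept, and 30 barcodes occurred in both. Mitochondrial genes gave 0.370% of UMIs in Lipo-Clo and 1.73% in Lipo-PBS. Mesenchymal cells numbered 4199 and 3918, perivascular cells 371 and 515, and endothelial cells 395 and 502, in that order of libraries here and below. Cells of clusters that the marker lists did not name, or whose leading genes were those of another lineage than their markers, numbered 190 and 1038 and were left out. The largest such cluster had 37 and 720 cells. It was led by the perivascular genes Acta2, Tagln and Myl9, beside Igfbp7 and Mgp, and it held 2246 Eln UMIs of Lipo-PBS against 17 of Lipo-Clo. Members and other genes of the pathway were kept out of the genes used for clustering, so their levels did not define the states.

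Within mesenchyme, 3 states carried fibroblast markers (Col14a1, Clec3b, Cd34) and are called fibroblast-like. They were led by Clec3b and Col14a1 (440 and 785 cells), by Fst and Ccl19 (111 and 148 cells) and by Ebf2 and Meox2 (21 and 49 cells). Of the mesenchymal cells, 13.6% were fibroblast-like in Lipo-Clo (exact 95% interval 12.6 to 14.7) and 25.1% in Lipo-PBS (23.7 to 26.5), and their summed fibroblast markers stood at 7135 and 6992 CPM. The rest of the mesenchyme comprised 9 states, with periodontal ligament-like, dental follicle-like, osteoblast- or cementoblast-like, odontoblast-like, cycling and unnamed cells. The cycling state also carried the ligament markers Tnmd, Aspn and Tnn, but it is called cycling here and not periodontal ligament-like. All intervals cover counting error only, and the share of a cell type also depends on dissection and digestion.

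Of the 9 members, 7 were highest in fibroblast-like cells in both libraries, among 5 mesenchymal and vascular classes: Eln, all 3 Mfap genes, Fbln1, Fbln2 and Fbln5. The other two, Efemp2 and Emilin1, were highest in the other mesenchyme. Fibroblast-like cells held 82.8% of the mesenchymal Eln UMIs in Lipo-Clo and 78.9% in Lipo-PBS, and 86.1% and 83.9% of those of Mfap5. The share was much smaller for Mfap2 (12.3% and 22.8%), Efemp2 (7.74% and 17.3%) and Emilin1 (7.41% and 14.5%). Mfap4 (65.9% and 68.9%), Fbln2 (40.9% and 57.0%), Fbln5 (28.7% and 39.6%) and Fbln1 (17.6% and 26.4%) lay between them.

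**Figure D1:**
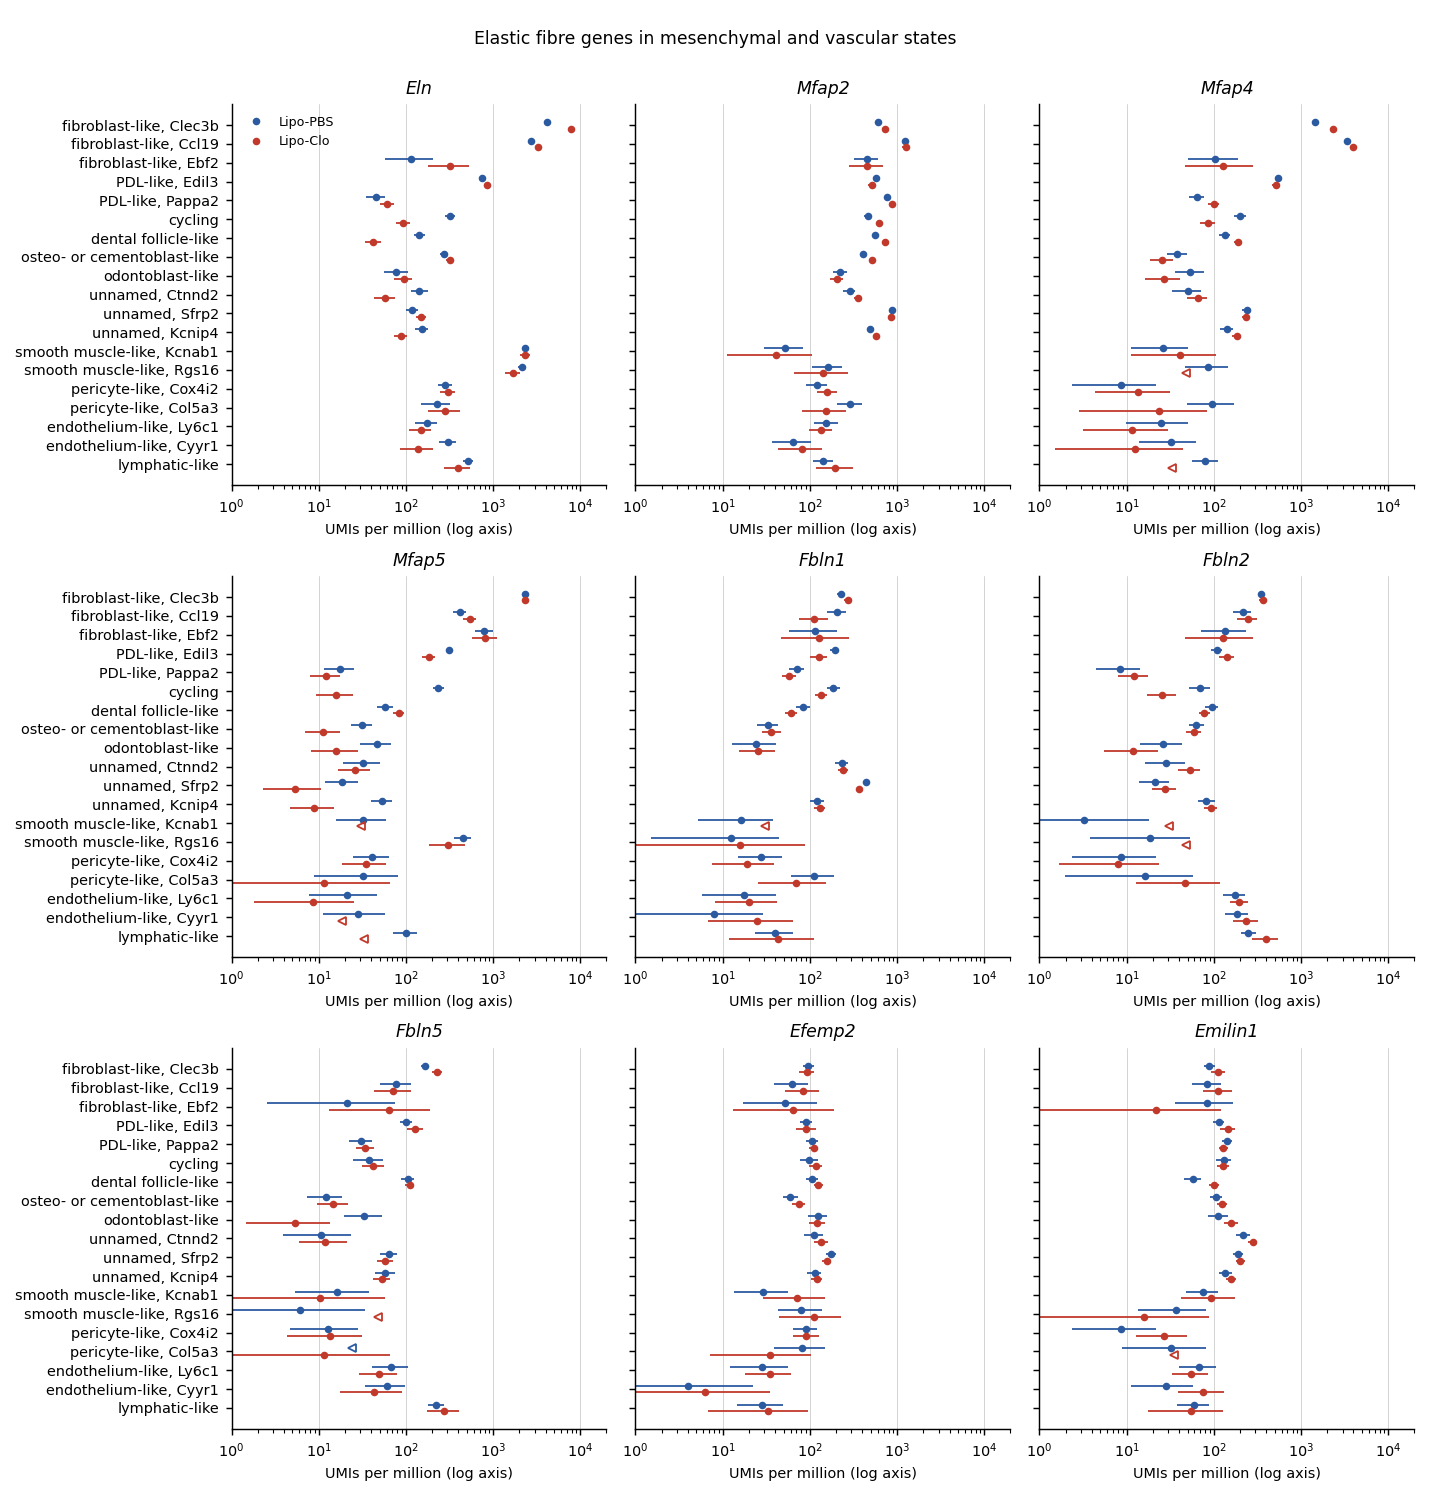
Level of each of the 9 members in 19 mesenchymal and vascular states, in CPM on a log axis, with 1 point per library (blue, Lipo-PBS; red, Lipo-Clo) and bars for the exact 95% Poisson interval. Open triangles mark states with 0 UMIs, at the level that 3 UMIs would give. Eln, Mfap4 and Mfap5 peaked in fibroblast-like states, while Mfap2, Efemp2 and Emilin1 were present across the mesenchyme.

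Eln, which encodes tropoelastin, the elastic core of the fibre, was highest in the Clec3b and Col14a1 fibroblast-like state, at 7905 CPM (Lipo-Clo) and 4205 CPM (Lipo-PBS). The Fst and Ccl19 fibroblast-like state came next with 3262 and 2712 CPM, and the smooth muscle-like state led by Kcnab1 and Myh11 followed with 2332 and 2331 CPM. These neighbours in the order had intervals that did not overlap in either library. The other smooth muscle-like state, led by Rgs16, had 1673 and 2141 CPM, and in Lipo-PBS its interval overlapped that of the Kcnab1 state. Among mesenchymal states a periodontal ligament-like state led by Edil3 came after the Clec3b and Fst states in both libraries, with 859 and 751 CPM. The second periodontal ligament-like state, led by Pappa2 and Tnn, had only 61.0 and 45.2 CPM, although both states carried the ligament markers Aspn and Tnn. Among fibroblast-like cells the small Ebf2 and Meox2 state was an exception, with 322 and 115 CPM of Eln.

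Free RNA sets a floor for such readings. In macrophages, which are not known as a source of elastin, Eln had 23.5 CPM (Lipo-Clo) and 36.4 CPM (Lipo-PBS) and was seen in 3.94% and 5.78% of cells (median 1913 and 2351 UMIs per cell). In fibroblast-like cells, of similar depth (median 2241 and 2390 UMIs), 81.3% and 74.6% of cells had an Eln UMI. Macrophages had the lowest level of these lineages, and others not known as a source of elastin had more. Neutrophils had 82.4 and 445 CPM, epithelium 124 and 226 CPM, B cells 309 and 370 CPM, and T or NK cells 430 and 180 CPM. Glia had 554 and 161 CPM. The higher library thus differed between lineages, and outside mesenchyme and vessel wall Eln levels of this size were not specific to a cell type. The group called neutrophils here and below includes a cluster of 384 and 179 cells led by Cd74, S100a9, Lyz2, Tyrobp and Plac8. It carried 4 neutrophil markers and may hold other myeloid cells, so the neutrophil values are those of a mixed group.

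Among the microfibril-associated genes, Mfap2, whose product binds fibrillin and is found on most microfibrils, was the most evenly spread over the dental mesenchyme. It was highest in the Fst and Ccl19 fibroblast-like state at 1275 and 1244 CPM, and the next places were held by the Pappa2 periodontal ligament-like state (869 and 771 CPM) and the unnamed state led by Pcp4, Sfrp2 and Mmp13 (861 and 884 CPM), whose order turned between the libraries. Odontoblast-like cells had 203 and 222 CPM, the lowest of the 12 mesenchymal states. A UMI of Mfap2 was present in 71.7% (Lipo-Clo) and 71.2% (Lipo-PBS) of mesenchymal cells.

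Mfap4, which encodes a fibrinogen-related protein that binds tropoelastin and fibrillin, had a narrower range. The Fst and Ccl19 state led with 3906 and 3345 CPM, ahead of the Clec3b and Col14a1 state with 2358 and 1445 CPM, and the Edil3 periodontal ligament-like state came after both with 512 and 542 CPM. All 3 were separated from each other by their intervals in both libraries. The smooth muscle-like state led by Rgs16 had 0 Mfap4 UMIs in Lipo-Clo, and the 3 UMIs that a count of 0 allows correspond to 47.8 CPM there.

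Mfap5, the second small microfibril glycoprotein, was most concentrated in the Clec3b and Col14a1 state, with 2327 CPM (Lipo-Clo) and 2295 CPM (Lipo-PBS). In the Ebf2 and Meox2 state, where Eln was low, Mfap5 still had 815 and 793 CPM, and in the Fst and Ccl19 state, which led for Mfap4, it had 540 and 415 CPM. Mfap5 was also found in the Rgs16 smooth muscle-like state at 303 and 449 CPM, against 0 UMIs in Lipo-Clo (a limit of 30.8 CPM) and 32.5 CPM in Lipo-PBS in the Kcnab1 smooth muscle-like state. These levels rest on few cells. Over all smooth muscle-like cells, 98 and 218 in number, Mfap5 had 19 and 83 UMIs, in 5.10% and 10.6% of the cells. The 2 fibroblast-like states thus ranked in opposite order for Mfap4 and Mfap5 in both libraries.

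The fibulins differed in where they were found. Fbln2, whose product lies between microfibrils and the elastin core, was highest among mesenchymal states in the Clec3b and Col14a1 state (366 and 351 CPM). The lymphatic-like endothelial state led by Ccl21a, with only 27 and 96 cells, had 393 and 250 CPM, above that fibroblast-like state in Lipo-Clo and below it in Lipo-PBS. In Lipo-Clo the intervals of these states overlapped (275 to 544 against 331 to 403 CPM). The endothelial states led by Ly6c1 and by Cyyr1 had 197 and 173 CPM and 236 and 184 CPM. Fbln5, which tethers tropoelastin and lysyl oxidase-like enzyme to the microfibril, was higher in this lymphatic-like state, with 273 and 222 CPM from 25 and 94 UMIs, than in the Clec3b and Col14a1 state (229 and 165 CPM), the highest of the mesenchymal states. The Fbln5 intervals of these states overlapped in both libraries. Glia had 172 and 141 CPM, and their interval overlapped that of the Clec3b and Col14a1 state.

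Fbln1, a fibulin found in the elastin core, peaked outside fibroblast-like cells when states were taken singly. The unnamed Pcp4, Sfrp2 and Mmp13 state had 365 and 446 CPM, above the Clec3b and Col14a1 state (274 and 227 CPM) and the unnamed state led by Ctnnd2 (243 and 234 CPM), and the intervals of the last 2 overlapped. Efemp2, the fibulin that brings lysyl oxidase to tropoelastin, was highest in the same Mmp13 state (156 and 174 CPM), but the intervals of neighbours in its order overlapped throughout the top 4 states. Its level in fibroblast-like cells was 89.5 and 90.3 CPM. Emilin1, a glycoprotein at the interface of elastin and microfibrils, was highest in the Ctnnd2 state (280 and 218 CPM) and then in the Mmp13 state (202 and 190 CPM), and in fibroblast-like cells it had 109 and 87.9 CPM.

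Genes most like each member across 29 cell states were found by Pearson correlation of log2(CPM + 1), taking the lower value of the 2 libraries. The states share libraries and depth, so r is a description. Eln was closest to Tbx15 (r = 0.76), Tppp3 (0.76) and Ccdc80 (0.74), Mfap4 to Angptl1 (0.88), Gdf10 (0.81) and Il11ra1 (0.77), and Mfap5 to Col6a6 (0.84), Dpt (0.82) and Clec3b (0.81). Mfap2 was closest to Gpx7 (0.91), Mdk (0.90) and Aebp1 (0.89), and Efemp2 to Gpx8 (0.91), Zfhx4 (0.88) and the procollagen enhancer Pcolce (0.88). Lower values were found for Fbln1 with Clec11a (0.81), Clmp (0.80) and Olfml3 (0.79), Emilin1 with Polr3d (0.82), Pcca (0.74) and Plagl1 (0.74), Fbln2 with Nlgn1 (0.75), Ramp2 (0.73) and Nav1 (0.71), and Fbln5 with Fam171a1 (0.68), D430019H16Rik (0.68) and Tamalin (0.67). No member was among the 3 nearest genes of another.

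The libraries were then compared in all mesenchymal cells, to see how the members stood after clodronate liposomes. Mfap5 was the 1 member past a 1.5-fold difference, with 223 CPM in Lipo-Clo against 467 CPM in Lipo-PBS (log2 ratio −1.07, 95% interval −1.13 to −1.003). Fbln2 had 80.7 and 112 CPM (log2 ratio −0.47), Mfap4 383 and 469 CPM (−0.29), Fbln1 134 and 164 CPM (−0.29), Eln 809 and 961 CPM (−0.25) and Fbln5 66.8 and 73.5 CPM (−0.14). Emilin1, at 145 and 119 CPM (0.28), Mfap2, at 660 and 585 CPM (0.17), and Efemp2, at 114 and 103 CPM (0.15), had ratios above 0. Thus 1 of 9 members was lower past the limit and 0 were higher, while of all 11679 genes with at least 100 UMIs 6.64% were lower and 2.5% were higher. The median log2 ratio was −0.25 over the members and −0.03 over all these genes.

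Fibroblast-like cells gave a different picture. Eln had 6812 CPM (Lipo-Clo) and 3855 CPM (Lipo-PBS), which is a log2 ratio of 0.82 (95% interval 0.78 to 0.86), or 1.77-fold higher. Mfap4 had 2562 and 1644 CPM (log2 ratio 0.64, 0.58 to 0.70). In contrast Mfap5, the member with the lowest ratio in mesenchyme as a whole, stood at 1953 and 1991 CPM here (log2 ratio −0.03, −0.10 to 0.04). Fbln5, at 195 and 148 CPM (0.40, interval 0.17 to 0.63), Emilin1 (0.31, 0.00 to 0.61) and Mfap2, at 825 and 678 CPM (0.28, 0.17 to 0.39), were above 0 within the limit. Fbln1, at 239.6 and 219 CPM, Fbln2, at 336 and 325 CPM, and Efemp2 had intervals that included 0. In all, 2 of 9 members were higher past 1.5-fold and 0 were lower, against 2.13% and 10.6% of the 5504 genes used in these cells. Mfap4 was inside 1.5-fold under 2 of 17 alternative settings, and Eln was past it under all 17.

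**Figure D2:**
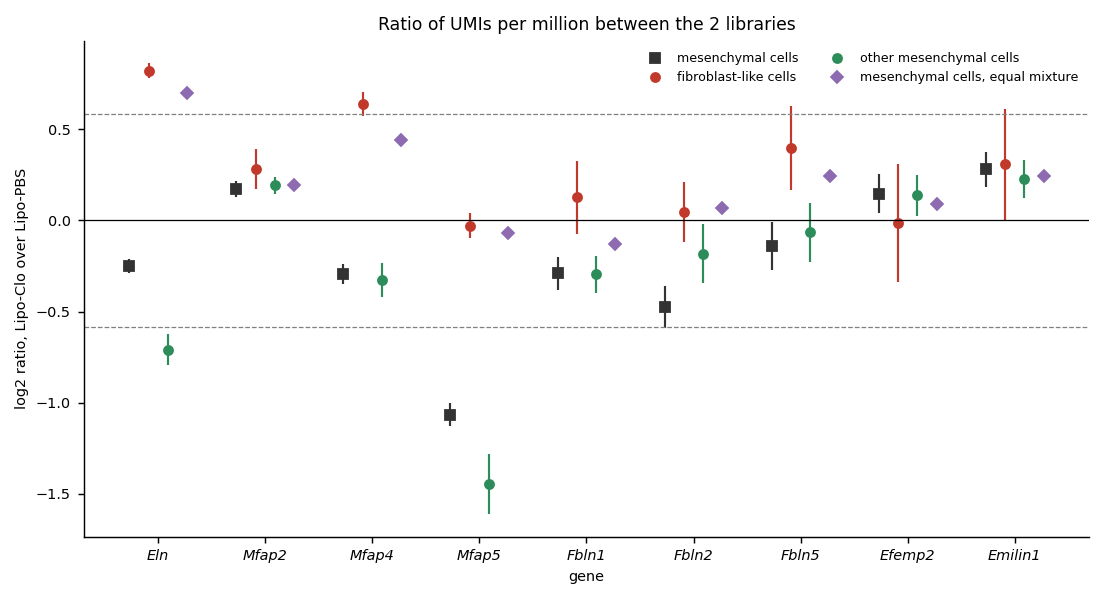
Log2 ratio of CPM, Lipo-Clo over Lipo-PBS, for the 9 members in all mesenchymal cells, fibroblast-like cells, the other mesenchymal cells, and mesenchyme weighted to an equal mixture of states. Bars are exact 95% counting intervals, dashed lines mark 1.5-fold, and the mixture has no interval. Eln lay at 0.82 in fibroblast-like cells and at −0.71 in the other mesenchyme, on opposite sides of 0.

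The higher Eln level was found in both large fibroblast-like states. In the Clec3b and Col14a1 state the log2 ratio was 0.91 (0.87 to 0.95) and in the Fst and Ccl19 state 0.27 (0.13 to 0.40). When mesenchyme was divided more finely, the fibroblast-like state richest in Eln had 10477 and 6224 CPM (log2 ratio 0.75), a state with Ly6a and Plac9 among its leading genes had 3279 and 2016 CPM (0.70), the Ccl19 state had 3262 and 2586 CPM (0.33), and a small Mgp and Bnc2 state had 343 and 177 CPM (0.96, interval −0.02 to 1.92). Mfap4 followed a narrower pattern. It was at 3405 and 2399.9 CPM in the first of these states (0.50), and at 431 and 465 CPM in the Ly6a state, where its interval included 0 (−0.39 to 0.16).

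At equal depth, with each cell thinned to 1000 UMIs, 511 fibroblast-like cells of Lipo-Clo and 882 of Lipo-PBS could be used, and 61 and 100 were too shallow. Mean Eln UMIs per thinned cell were 7.57 and 3.92. The share of cells with at least 1 Eln UMI was 69.5% and 64.6%, and the share with at least 5 was 38.6% and 25.1%. The median was 2 UMIs in Lipo-Clo and 1 in Lipo-PBS, the upper quartile 8 and 4.75, and the 90th percentile 24 and 11. The tenth of cells richest in Eln held a similar share of its UMIs in both libraries, 53.5% and 50.7%. For Mfap4 the mean was 2.80 and 1.80 UMIs, with at least 5 UMIs in 25.6% and 12.8% of cells, and for Mfap5 it was 1.97 and 1.87 UMIs.

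**Figure D3:**
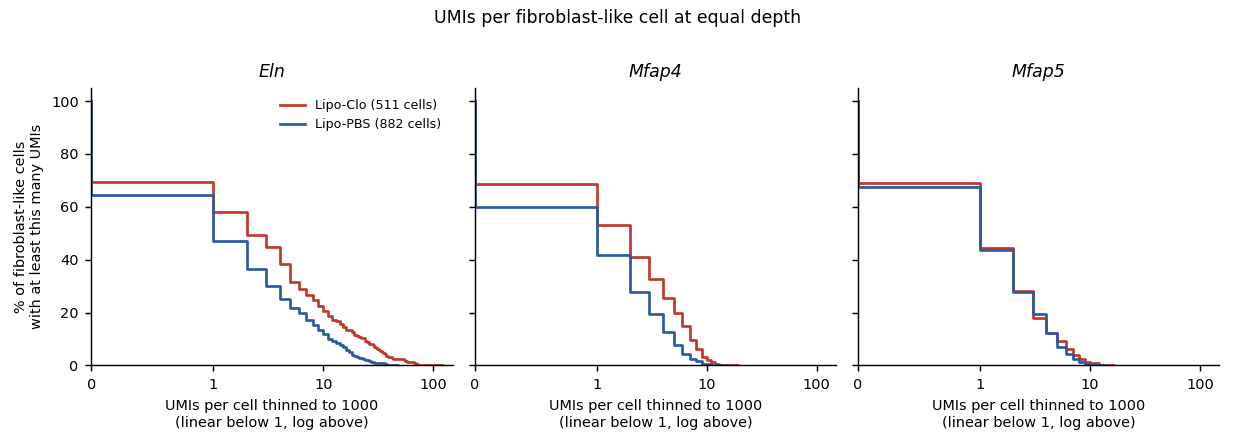
Share of fibroblast-like cells (vertical axis, percent) with at least a given number of UMIs (horizontal axis, linear below 1 and log above) of Eln, Mfap4 and Mfap5 after thinning each cell to 1000 UMIs, with 511 cells of Lipo-Clo in red and 882 of Lipo-PBS in blue. The Lipo-Clo line lay above the Lipo-PBS line for Eln and Mfap4, and the lines nearly coincided for Mfap5.

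Other measures also differed between the libraries in these cells. Neutrophil markers summed to 1008 CPM (Lipo-Clo) and 113 CPM (Lipo-PBS) (7 of 7 higher in Lipo-Clo), erythroid markers to 29669 and 55269 CPM (0 of 6 higher), and mitochondrial genes made up 0.267% and 1.31% of UMIs. Markers of smooth muscle, the other cell type rich in Eln, summed to 129 and 195 CPM. The part of these in the Eln and Mfap4 ratios was not tested.

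In the other mesenchyme 2 of 9 members were lower past 1.5-fold and 0 higher, against 5.65% and 2.04% of 11267 genes. Mfap5 had 34.5 and 93.9 CPM (log2 ratio −1.44, −1.61 to −1.28), and Eln 154 and 253 CPM (−0.71, −0.80 to −0.63). In neutrophils Mfap5 had 28.5 and 128 CPM, and was also lower in Lipo-Clo. Its level in the other mesenchyme was thus slightly above neutrophils in Lipo-Clo and below them in Lipo-PBS. The part of RNA from other cell types in this ratio was not tested. With only the shares of the 9 states differing the log2 ratio of Eln was −0.53, and with only levels within states it was −0.15. The Edil3 state, the highest of the 9 in Eln, held 240 and 531 cells. For Mfap5 the shares gave −0.46 and the levels −0.97. Within states the direction of Eln varied. It had an interval wholly below 0 in the dental follicle-like state (42.3 and 143 CPM), the cycling state (93.3 and 323 CPM), the Ctnnd2 state (57.4 and 143 CPM) and the unnamed state led by Pcp4 and Kcnip4 (87.8 and 151 CPM). In Lipo-PBS all of these levels were below that of Eln in neutrophils (445 CPM). In Lipo-Clo neutrophils had 82.4 CPM, below the cycling and Kcnip4 states and above the dental follicle-like and Ctnnd2 states. The interval was wholly above 0 in the Edil3 and Pappa2 periodontal ligament-like states, the osteoblast- or cementoblast-like state and the Mmp13 state. It included 0 in odontoblast-like cells. The cycling state, where Eln was lower, also carried ligament markers. In the Edil3 state the log2 ratio of Eln was 0.19 (0.05 to 0.34). The Eln levels of the Pappa2 state, given earlier, were below those of neutrophils in both libraries, and those of the Edil3 state were above them.

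Mfap5 was at 15.9 CPM (Lipo-Clo) and 236 CPM (Lipo-PBS) in the cycling state, and at 183 and 314 CPM in the Edil3 periodontal ligament-like state (log2 ratio −0.78, −1.07 to −0.49). It was at 82.8 and 58.3 CPM in the dental follicle-like state (0.50, 0.13 to 0.89), so its direction also varied. The dental follicle-like level was above that of Mfap5 in neutrophils in Lipo-Clo (28.5 CPM) and below it in Lipo-PBS (128 CPM). Over all mesenchymal states with at least 50 UMIs, Fbln1 was lower with an interval below 0 in 5 of 10, among them the Edil3 state (126 and 192 CPM) and the Mmp13 state (365 and 446 CPM). Mfap2 went the other way, with an interval above 0 in 7 of 12 states and below 0 in none of the 12. Efemp2 had an interval including 0 in all 10 states with enough UMIs. Fibroblast markers in the other mesenchyme summed to 375 and 528 CPM (0 of 9 higher in Lipo-Clo), and their part in the Eln and Mfap5 ratios was not tested.

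The opposite signs of Eln in mesenchyme as a whole and in fibroblast-like cells went with the shares of the states. When only the shares of the 12 states were allowed to differ and each state kept its mean level, the log2 ratio of Eln was −0.91, and when only the levels within states differed it was 0.66, against −0.25 as measured. Mfap4 gave −0.70 and 0.41 against −0.29. Mfap5 was split differently, with −0.94 from shares and −0.11 from levels within states, against −1.07. For Fbln2 the shares alone gave −0.50 and for Fbln5 −0.33, with 0.03 and 0.20 from levels within states. Emilin1 (0.05 and 0.23), Mfap2 (−0.02 and 0.19), Efemp2 (0.07 and 0.08) and Fbln1 (−0.13 and −0.16) had ratios from shares between −0.13 and 0.07, which for Efemp2 and Fbln1 were close in size to those from levels.

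**Figure D4:**
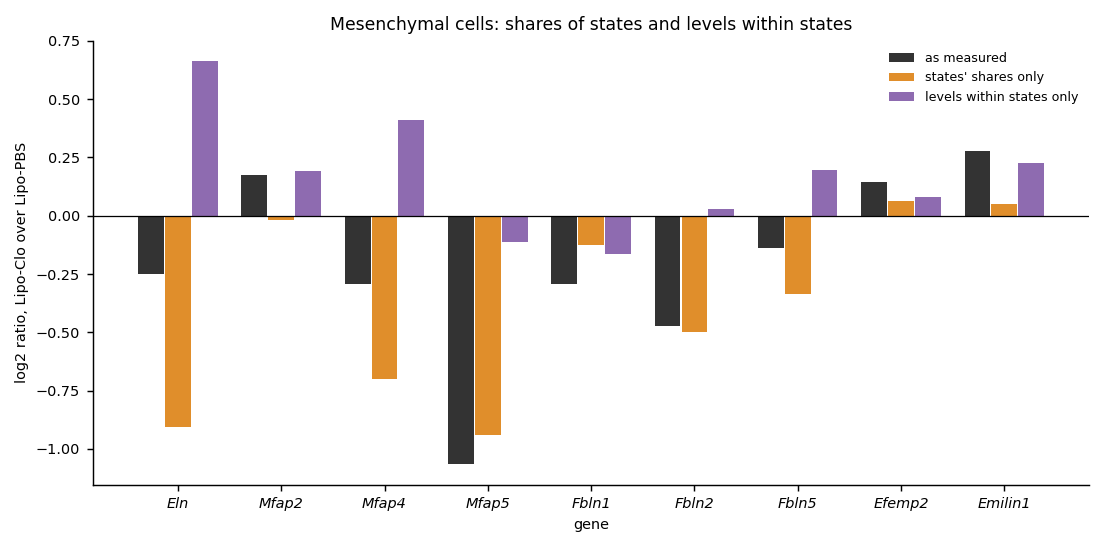
Log2 ratio, Lipo-Clo over Lipo-PBS, of the 9 members in all mesenchymal cells as measured (black), with only the shares of the 12 states differing (orange) and with only the levels within states differing (purple). For Eln the orange bar is at −0.91 and the purple bar at 0.66, whereas for Mfap5 the orange bar at −0.94 lies close to the measured −1.07.

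At an equal mixture of the 12 states, with the mean of both libraries' shares as weights, Eln had 1483 CPM (Lipo-Clo) and 914 CPM (Lipo-PBS) (log2 ratio 0.70). It was the 1 member of 9 past 1.5-fold on the higher side, and 0 were lower, against 1.54% higher and 5.29% lower of 11679 genes. Mfap4 came to 0.44, Fbln5 to 0.24 and Mfap5 to −0.07 on the log2 scale.

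Vascular cells were fewer and held fewer UMIs than mesenchyme, and fewer members reached the 100 UMIs needed for a comparison. In perivascular cells, 4 of 9 members had 100 UMIs, and 2 were lower past 1.5-fold and 0 higher, against 5.21% and 6.4% of 2842 genes. Eln had 757 and 1154 CPM (log2 ratio −0.61, −0.76 to −0.45) and Mfap5, with 33 and 106 UMIs, 53.4 and 99.8 CPM (−0.90, −1.51 to −0.33). The perivascular level of Mfap5 was above that of neutrophils in Lipo-Clo (28.5 CPM) and below it in Lipo-PBS (128 CPM). Eln was inside 1.5-fold under 4 of 14 alternative settings and Mfap5 under 2 of 14. Mfap2 (138 and 126 CPM) and Efemp2 (82.5 and 69.7 CPM) had intervals that included 0. The 37 and 720 cells led by Acta2 and Tagln that were left out are not in these values.

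Split into their 2 kinds, perivascular cells showed little distance in Eln. Smooth muscle-like cells, 98 and 218 in number, had 2074 and 2265 CPM (−0.13, −0.31 to 0.05). Pericyte-like cells, 273 and 297 in number, had 297 and 270.4 CPM (0.14, −0.20 to 0.47). Eln had 309 and 370 CPM in B cells and 82.4 and 445 CPM in neutrophils. The pericyte-like level was thus below that of B cells in both libraries, and above that of neutrophils in Lipo-Clo only. With only the shares of states differing the perivascular log2 ratio of Eln was −0.54, and with only levels within states it was −0.06. Per smooth muscle-like cell thinned to 1000 UMIs the mean was 2.15 and 2.12 Eln UMIs, over 74 and 200 cells. The 2 members used in smooth muscle-like cells, Eln and Mfap5 (119 and 177 CPM), were both within the limit, against 3.38% lower and 6.95% higher of 1007 genes. The 2 used in pericyte-like cells, Eln and Mfap2, were also within it, against 5.05% lower and 9.05% higher of 1723 genes.

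In endothelial cells 6 of 9 members were used, and 3 were lower past 1.5-fold and 0 higher, against 7.57% and 6.78% of 3302 genes. Eln had 182 and 491 CPM (−1.43, −1.74 to −1.14), Mfap4 6 and 127 UMIs, or 9.93 and 112 CPM (−3.50, −4.97 to −2.34), and Mfap5 3 and 101 UMIs, or 4.96 and 89.3 CPM (−4.17, −6.47 to −2.58). These 3 are the members most concentrated in fibroblast-like cells, and summed mesenchymal markers in the same endothelial cells were 5799 CPM (Lipo-Clo) and 11033 CPM (Lipo-PBS) (0 of 7 higher in Lipo-Clo). Smooth muscle markers summed to 64.5 and 318 CPM (1 of 7 higher) and fibroblast markers to 955 and 876 CPM (3 of 9 higher). The fibroblast list includes Cd34, which was also among the leading genes of the Ly6c1 endothelial state. Its sum in endothelial cells is therefore not a measure of fibroblast RNA alone. Outside mesenchyme and vessels, Mfap4 had 38.4 and 106 CPM in neutrophils, 62.2 and 167 CPM in B cells and 40.3 and 79.6 CPM in epithelium. It was higher in Lipo-Clo in T or NK cells (156 and 73.5 CPM), glia (127 and 61.0 CPM) and macrophages (36.9 and 25.7 CPM). Mfap5 was lower in Lipo-Clo in neutrophils (28.5 and 128 CPM), B cells (52.7 and 192 CPM), epithelium (22.2 and 68.5 CPM) and erythroid cells (10.5 and 26.1 CPM). It was also lower in macrophages (13.4 and 17.1 CPM), and it was higher in T or NK cells (106.5 and 73.5 CPM) and slightly higher in glia. In macrophages, T or NK cells and glia the Mfap5 intervals of the libraries overlapped. The part of RNA from other cell types in the endothelial ratios was not tested. The other 3 members used were within the limit. Fbln2 was at 235 and 208 CPM (0.18, −0.13 to 0.48), Mfap2 at 127 and 146 CPM (−0.19, −0.60 to 0.20) and Fbln5 at 82.7 and 118 CPM (−0.52, −1.02 to −0.04), and Fbln5 was past 1.5-fold in 4 of 15 alternative settings. The endothelial states also differed in their shares, and summed lymphatic markers were 3288 and 6207 CPM. With only the shares of the 4 states differing the log2 ratio was −0.70 for Eln, −1.27 for Mfap4, −1.12 for Mfap5 and −0.66 for Fbln5. With only levels within states it was −0.85, −3.28, −4.15 and 0.18 in the same order. The Ccl21a lymphatic-like state held 27 and 96 cells. Another lymphatic-like state, with leading genes of several lineages, held 3 and 34, and without it the log2 ratio was −0.99 for Eln, −2.35 for Mfap4 and −3.52 for Mfap5.

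Another 48 genes linked to elastic fibres were looked at in the same way. They include fibrillins, latent TGF-beta binding proteins, lysyl oxidases, further fibulins, EMILINs and multimerins, ADAMTS and ADAMTS-like proteins, matrix partners and integrin subunits. Genes of the elastin receptor complex, copper and sugar transport, and elastases, which break elastin down, with an inhibitor, make up the rest. In mesenchymal cells 41 of 48 were used, and 10 were lower and 3 higher past 1.5-fold, beside the 6.64% and 2.5% of all genes given above. Their median log2 ratio was −0.22. At the equal mixture of states 3 of the 41 were lower and 2 higher, against 5.29% and 1.54% of all genes. The median of the 41 was −0.08 there. In the other mesenchyme 7 of 41 were lower and 3 higher, against 5.65% and 2.04% of all genes used. In all mesenchymal cells Fbn1, the main fibrillin of postnatal microfibrils, had 256 and 425 CPM (−0.73). Fbn2, the fibrillin more typical of development, had 194 and 193 CPM (0.01). Loxl1, the lysyl oxidase-like enzyme tied to elastin, had 116 and 183 CPM (−0.65), and Lox 237 and 254 CPM (−0.10). Ltbp2, which binds fibrillin, had 8.45 and 15.7 CPM (−0.89), and Ltbp4, which works with fibulins in elastin assembly, 186 and 262 CPM (−0.49).

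The other pathway genes furthest from 0 were Adamtsl3 (12.2 and 31.1 CPM, −1.35), Hmcn1, a very large fibulin-family protein (85.0 and 171 CPM, −1.01), the small proteoglycan Dcn (851 and 1493 CPM, −0.81), the integrin subunit Itgb1 (540.4 and 927 CPM, −0.78), Adamts17 (19.0 and 31.3 CPM, −0.72), Itgb3 (12.8 and 20.6 CPM, −0.69) and fibronectin, Fn1 (452 and 689 CPM, −0.61). Fbln7, a small fibulin of teeth and cartilage, was higher, with 70.8 and 40.3 CPM (0.81). The remaining 2 higher genes had few UMIs and are named after their values were seen. Adamtsl2 had 104 and 59 UMIs (0.70), and Elane, neutrophil elastase, had 151 and 27 UMIs (2.36), in cells whose neutrophil markers summed to 601 and 138 CPM.

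In fibroblast-like cells 35 of the 48 were used, with 4 lower and 0 higher, against 10.6% and 2.13% of all 5504 genes used there. Their median log2 ratio was −0.04, and that of all these genes was −0.05. The 4 were Adamtsl3 (−1.36), Itgb1 (−0.83), Hmcn1 (−0.68) and Adamts17 (−0.66). Fbn1 was at 1212 and 1391 CPM (−0.20, −0.28 to −0.11), Loxl1 at 567 and 504 CPM (0.17, 0.04 to 0.30), Lox at 278 and 245 CPM (0.18, 0.00 to 0.37) and Fn1 at 1769.8 and 1722 CPM (0.04, −0.03 to 0.11). Thus, for Fbn1, Loxl1 and Fn1, as for Mfap5, a ratio past 1.5-fold in mesenchyme as a whole was not met in fibroblast-like cells. The fibrillin, latent TGF-beta binding protein and lysyl oxidase genes used there had log2 ratios between −0.31 (Ltbp2) and 0.24 (Ltbp3), all below the 0.82 of Eln.

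**Figure D5:**
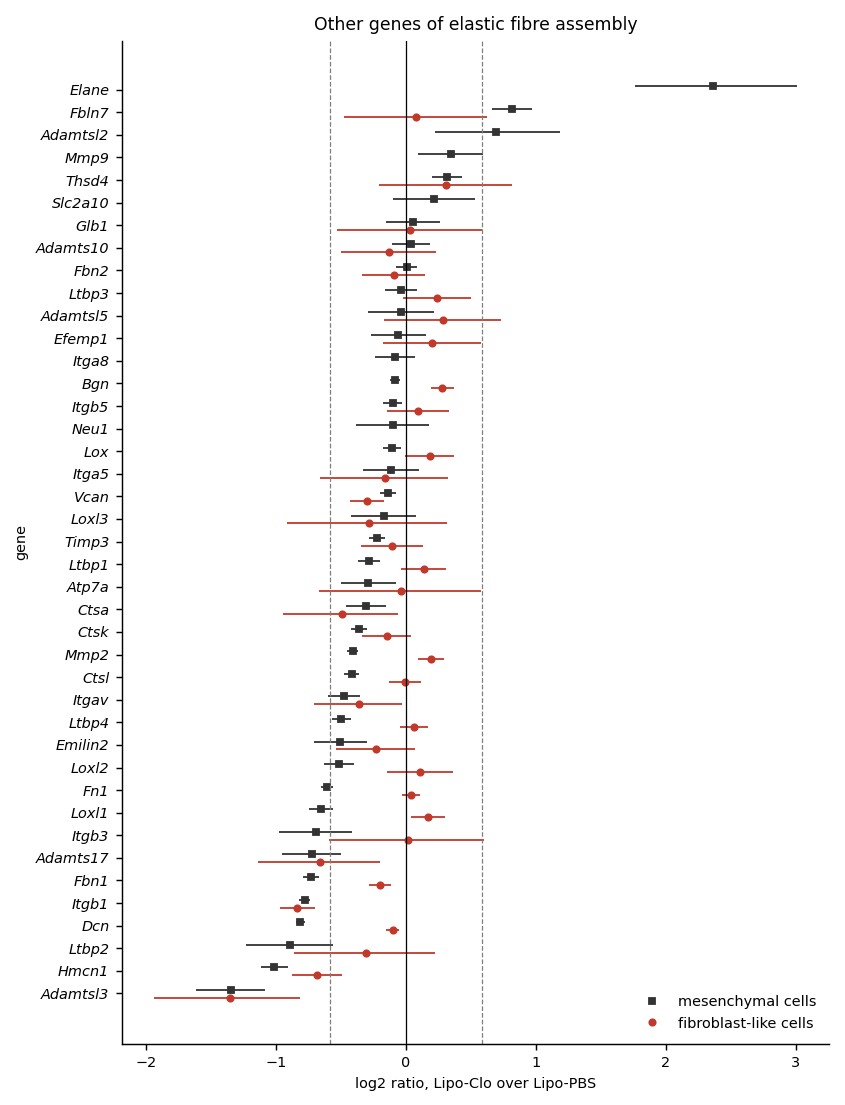
Log2 ratio, Lipo-Clo over Lipo-PBS, of the 41 other genes linked to elastic fibres with at least 100 UMIs in mesenchymal cells (squares) and, for the 35 with enough UMIs there, in fibroblast-like cells (circles), with exact 95% counting intervals. Dashed lines mark 1.5-fold. Fbn1, Dcn, Loxl1 and Fn1 lay beyond the left line in mesenchyme as a whole and inside it in fibroblast-like cells.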

How the data were processed

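Single-cell suspensions were run on the 10x platform, and the authors deposited 1 matrix of UMI counts per gene and cell for each library, with genes aligned to GRCm39 by Cell Ranger 3.1.0 per the labels' processing notes (the deposited file headers name version 8.0.0). Every value here was computed from those deposited counts. Cells needed at least 200 genes and no more than 20% of UMIs from mitochondria. Scrublet called 0 and 1 doublets, so the 632 and 633 cells with the highest scores were removed instead. Cells were clustered jointly with scanpy 1.11.5 and leidenalg 0.10.2 (2000 variable genes, 30 components, resolution 1, then 0.6 within mesenchyme and 0.5 within vascular cells), without the members and 48 pathway genes. States were named from marker lists, needing 3 markers. UMIs were summed per library and class and divided by the total. Ratios carry exact 95% conditional Poisson intervals, and shares Clopper-Pearson intervals. With 1 library per condition no test across samples was possible, and a gene was called past 1.5-fold among genes with at least 100 UMIs over both libraries.

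The named genes were all members, 6 fixed pathway genes with the 8 others of largest ratio and at least 200 UMIs in mesenchyme, the 3 genes most like each member, and marker genes that name states. The members and lists were chosen with earlier results of these data known. Intervals were checked only on counts simulated from a Poisson distribution, so that check does not cover variation between cells. Alternatives included edgeR 4.0.16 TMM factors, other totals, filters, fold limits, thinning and clusterings. Sequences were read from GENCODE M21 on GRCm38, which is not the build of the counts, so genes were matched by symbol and no coordinate was converted. PCR copies were collapsed by UMI, and intervals do not cover variation between cells or between mice.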

Additional observations from a re-analysis of the deposited data

How the results depend on the processing

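No paired analysis was possible because only 1 library stands for each treatment. The Eln log2 ratio in fibroblast-like cells ranged from 0.72 to 0.95 over 17 alternatives and was past 1.5-fold in all 17, and that of Mfap4 ranged from 0.56 to 0.68 and was past it in 15. In the equal mixture Eln ranged from 0.61 to 0.73 over 9 alternatives, and clustering each library alone could not give a value there because the states are not shared. Mfap5 in mesenchyme ranged from −1.09 to −0.85 and stayed past the limit, while Eln there ranged from −0.27 to 0.02, above 0 in 1 of 17. The 7 members highest in fibroblast-like cells in both libraries were so under all 8 alternatives for levels, while Efemp2 in Lipo-PBS moved from the other mesenchyme to pericyte-like cells with members allowed in clustering (107 CPM) and with each library clustered alone (103 CPM).

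Counts of members past the limit changed as follows, and the cause was not tested except where the setting itself is the limit. Shares over all genes are not given for these settings. The counts therefore show only how the calls depend on processing, not whether members stand out from other genes. With the limit lowered to 0.32 on the log2 scale, 2 members were lower in mesenchyme, 3 in the other mesenchyme, 4 in endothelium and 1 in smooth muscle-like cells, 3 were higher in fibroblast-like cells, and 17 pathway genes were lower in mesenchyme. With a 2-fold limit, 0 members were higher in fibroblast-like cells, 1 was lower in the other mesenchyme, 0 in perivascular cells, and 2 pathway genes in mesenchyme. Requiring a UMI in 10% of cells left 1 member lower in perivascular cells, 1 in endothelium and 6 pathway genes, and requiring only 20 UMIs gave 1 member lower in smooth muscle-like cells. With only 20 UMIs required, Mfap4 in perivascular cells (11 and 38 UMIs, log2 ratio −1.01) was also lower past 1.5-fold. In smooth muscle-like cells 1 member was higher past 1.5-fold under 2 of 14 alternatives. TMM factors, totals that omit mitochondrial, haemoglobin and ribosomal genes, and keeping doublets each gave 1 member lower in smooth muscle-like cells. In perivascular cells the count of 2 fell to 1 with a mean over scaled cells, to 0 with cells thinned to 1000 UMIs, to 0 with a stricter cell filter (500 genes, 10% mitochondrial UMIs), and to 0 with members and pathway genes allowed in clustering. Thinning gave 1 member lower in endothelium. Clustering each library alone gave 1 in perivascular cells, 5 in endothelium and 1 higher in fibroblast-like cells. In 3 alternatives the Mfap5 ratio in smooth muscle-like cells had no value, since Lipo-Clo had 0 UMIs there. Depth limits the vascular classes most, where 3 to 7 members had under 100 UMIs.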
